A study of Mus musculus with 6 samples.

Results

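The expression of 45 genes that license replication origins or work in the replisome was examined in mouse embryonic fibroblasts (MEFs) of wild type and Mcm8 knockout genotype. The 45 genes were chosen by name: the 6 subunits of the origin recognition complex, the loading factors and their inhibitor, the factors that fire origins, the GINS complex, the 3 replicative DNA polymerases with primase, the sliding clamp and its loader, replication protein A, the flap nuclease, the ligase and the enzymes that supply nucleotides. MCM genes were not included. All 45 were found among the 55565 genes listed, and all 45 were among the 26898 genes that had reads in at least 1 library.

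RNA sequencing was performed on 3 wild type (WT) and 3 Mcm8 knockout (KO) libraries of MEFs from embryos of day 13.5. The mice had a mixed C57BL/6J and ICR background. The KO allele lacked exon 7, removed with CRISPR-Cas9 in the founder, and the embryos came from heterozygous parents. Cells of both genotypes came from the embryo trunk, were immortalized with a lentivirus that carries the SV40 large T gene and were selected with puromycin, so both groups carried these treatments. SV40 large T binds the RB and p53 proteins, which normally restrain the entry into S phase. Whether the 3 repeats of a genotype came from separate embryos or cultures is not given in the sources used here, so the p-values measure only the spread between these samples. In bulk RNA a lower level can be fewer cells of a type or less RNA per cell, and these cannot be told apart.

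DNA is replicated from origins that are prepared and fired in separate steps. In G1 the origin recognition complex (ORC), with CDC6 and CDT1, loads the MCM2-7 helicase on DNA, and geminin holds CDT1 back after S phase has begun. In S phase the kinase CDC7 with its partner DBF4, together with CDC45, GINS, treslin (Ticrr) and RECQL4, turns the loaded helicase into a moving fork, where primase with DNA polymerase alpha starts each strand and polymerases epsilon and delta extend it on the clamp PCNA. MCM8 is a relative of the MCM2-7 proteins that acts with MCM9 in DNA repair. Many genes of this machinery are transcribed at the border of G1 and S under E2F factors, which RB restrains.

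Library totals lay between 12722979 and 21022755 counts. Mcm8, the targeted gene, had 176, 233 and 238 counts in the WT libraries and 89, 74 and 66 in the KO libraries, a fall by 1.75 on the log2 scale (adjusted p = 4.45e-26). These counts are of the whole gene and include the exons outside the deletion. The summed level of 11 fibroblast markers, in CPM (counts scaled to the same library total), was between 24711 and 29191 in WT. In KO it was between 28674 and 29515. Col1a1, Col1a2, Fn1 and Vim made up most of these sums, while Dcn had a mean of 13.3 CPM over all libraries and Lum one of 1.45 CPM. Of the 11 fibroblast markers 3 were higher (Col1a1, Col3a1 and Fn1) and 3 lower (Thy1, Pdgfrb and Vim) in KO at an adjusted p below 0.05. Over all genes tested 9.00% passed that threshold, and over the genes with a mean of at least 1 CPM 17.0%. Thy1 had a log2 fold change of -1.03, Pdgfrb one of -0.74 and Vim one of -0.19, while the 3 higher genes had 0.20 to 0.29. The summed level of 7 epithelial markers was 0.499 to 1.18 CPM in WT and 5.53 to 6.68 CPM in KO, with Krt5 and Esrp1 at 0 counts in every library. That of 5 mesothelial markers was 6.27 to 7.13 CPM in WT and 49.3 to 56.0 CPM in KO, mostly through Msln, with Lrrn4 at 0 counts, and that of 5 neural markers 22.2 to 24.3 CPM and 32.8 to 34.2 CPM, mostly through Tubb3, with Sox10 at 0 counts. The Xist transcript was lower in KO, at 1196 ± 224 CPM in WT and 481 ± 11.4 CPM in KO (SD, n = 3), while Ddx3y of the Y chromosome was higher, at 7.77 ± 0.966 and 42.6 ± 5.32 CPM. The part of these differences in the results for the replication genes was not tested.

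Whether the machinery as a whole differed between genotypes was asked first. The 45 genes held between 0.360% and 0.383% of all counts in the 6 libraries. Added together they came to 3725 ± 81.5 CPM per WT library and to 3701 ± 27.6 CPM per KO library (SD, n = 3), with CPM scaled by the TMM factors of edgeR. These sums did not differ beyond the replicate spread (exact permutation test, two-sided, p = 0.8, where 3 against 3 cannot give a p below 0.1). They include Pcna, with a mean of 202 CPM in WT and 265 CPM in KO. They leave out its pseudogene Pcna-ps2, described below, with a mean of 66.6 CPM in WT and 0.914 CPM in KO. The sum of the 45 genes with Pcna-ps2 added was not tested.

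Each gene was then compared between genotypes with edgeR's quasi-likelihood test, and a gene was called when its Benjamini-Hochberg adjusted p over all genes tested was below 0.05. Of the 45 genes 2 were higher in KO (Pcna and Pold1), 2 were lower (Orc6 and Dbf4) and 41 were not called. The 4 calls made up 8.89% of the members. Over all genes tested the share called was 9.00%, with 4.97% higher and 4.03% lower, and over the 13222 genes with a mean of at least 1 CPM, where all 45 members lie, it was 17.0%, with 9.08% higher and 7.88% lower. With all 6 libraries the share called among the replication genes was thus near that of all genes tested and below that of the genes of at least 1 CPM. Without WT1 it was 17.8% of the members, beside 12.3% of all genes tested in that fit, and without KO2 it was 2.22% beside 6.71%. With DESeq2 it was 4.44% beside 5.67%, and with limma on log2(FPKM + 1) 0% beside 3.39%. With pseudogene counts added to their parent genes it was 6.67% beside 8.99%, and Pcna was then not called. None of the 45 met the rule for a differentially expressed gene, which adds an absolute log2 fold change above 1 and which 2.42% of all genes tested met. DESeq2 also gave no such member, and none of the 12 members with an unadjusted p below 0.05 in edgeR had a change of that size.

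The 3 KO libraries lay wholly above the 3 WT libraries for 5 members (Pcna, Pold1, Ticrr, Recql4 and Rfc3) and wholly below them for 7 (Orc4, Orc6, Dbf4, Pola1, Prim2, Rpa1 and Rrm1). For the remaining 33 the genotypes overlapped. Over all genes tested 11.6% were separated upward and 10.1% downward, and among the genes of at least 1 CPM 16.9% and 17.2%. The members' shares were 11.1% upward and 15.6% downward, so the downward share lay above that of all genes tested and below that of the genes of at least 1 CPM.

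**Figure D1:**
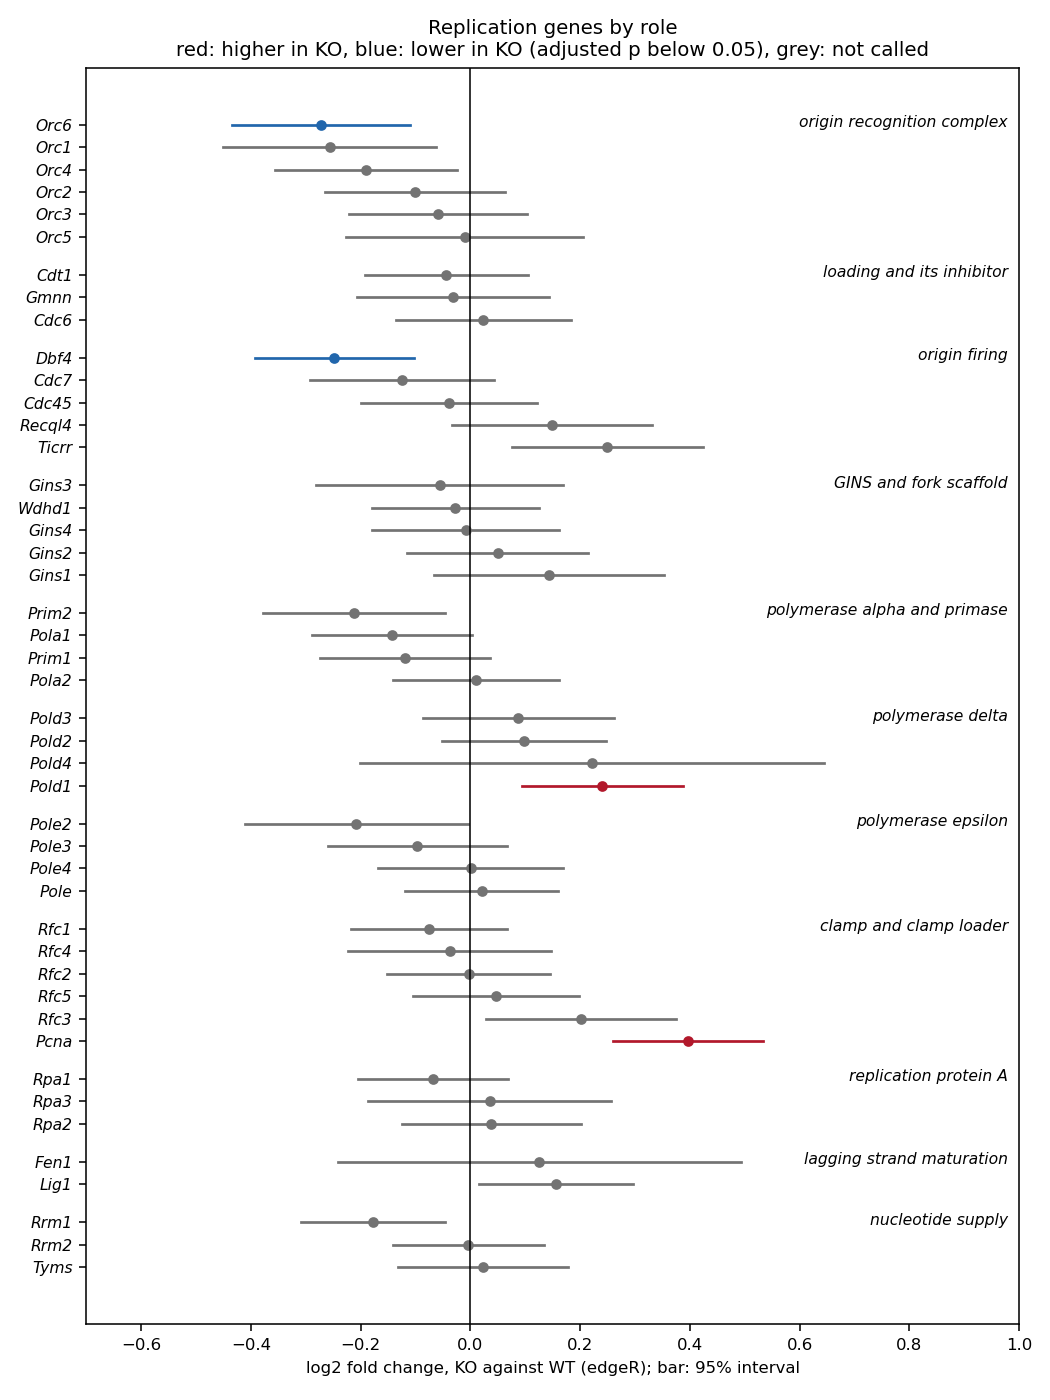
Fitted log2 fold change of KO against WT for the 45 replication genes, grouped by role (edgeR, points; bars are 95% intervals, 3 libraries per genotype). All points lie between -0.27 and 0.40, with Pcna and Pold1 called higher and Orc6 and Dbf4 called lower.

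The fitted log2 fold changes ran from -0.27 for Orc6 to 0.40 for Pcna, 20 above and 25 below 0. Their median was -0.0087, beside 0.012 for all genes tested and -0.0077 for the genes of at least 1 CPM. In size the changes had a median of 0.09 on the log2 scale with quartiles of 0.04 and 0.18, while the genes of at least 1 CPM had a median of 0.14 with quartiles of 0.07 and 0.28. None of the 45 changed by more than 0.5 on the log2 scale, a size that 12.0% of the genes of at least 1 CPM passed.

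**Figure D2:**
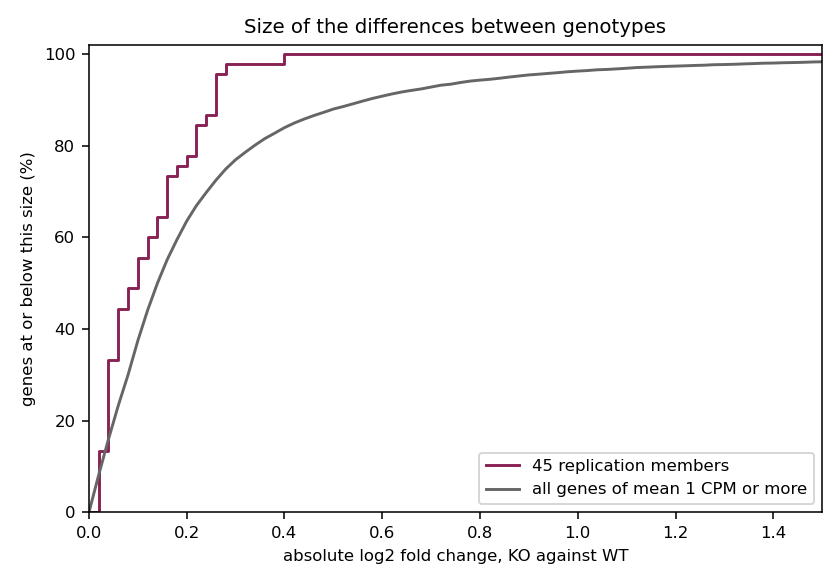
Share of genes (%) whose absolute log2 fold change between KO and WT is at or below the value on the horizontal axis, for the 45 replication genes and for all genes of at least 1 CPM. At 0.2 the curves stand at 77.8% and 63.6%, and the replication genes reach 100% at 0.4.

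A gene that was not called may still differ, and the intervals show by how much. Of the 41 uncalled members 24 had a 95% interval that stayed within a 1.2-fold change either way, 40 within 1.5-fold and all 41 within 2-fold. Pold4, the accessory subunit of DNA polymerase delta, was the one with an interval beyond 1.5-fold. It had only 31 to 96 counts a library, and its interval reached 0.64 on the log2 scale.

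Sequence comparison is shown first for Pcna, the gene with the largest difference, because its reads can be shared with a processed pseudogene, Pcna-ps2. Pcna encodes the ring that holds DNA polymerases on DNA. The coding sequence of Pcna has 786 bases and the pseudogene 781. Aligned to the coding sequence (GENCODE M21), Pcna-ps2 differs at 6 bases, an identity of 99.2%. Counted from the A of the start codon, with the base of Pcna first, the differences are A144G, A177C, G424A, A586G, G618T and G699A. The stretch from coding base 400 to 699, which holds 4 of them, is printed for both genes with the differing bases in capitals.

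Pcna: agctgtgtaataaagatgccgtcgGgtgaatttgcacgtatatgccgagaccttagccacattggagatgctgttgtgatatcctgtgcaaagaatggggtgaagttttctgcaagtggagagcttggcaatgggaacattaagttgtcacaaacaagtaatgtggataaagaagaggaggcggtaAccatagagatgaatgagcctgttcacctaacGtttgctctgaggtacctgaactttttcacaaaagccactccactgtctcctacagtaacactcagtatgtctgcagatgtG
Pcna-ps2: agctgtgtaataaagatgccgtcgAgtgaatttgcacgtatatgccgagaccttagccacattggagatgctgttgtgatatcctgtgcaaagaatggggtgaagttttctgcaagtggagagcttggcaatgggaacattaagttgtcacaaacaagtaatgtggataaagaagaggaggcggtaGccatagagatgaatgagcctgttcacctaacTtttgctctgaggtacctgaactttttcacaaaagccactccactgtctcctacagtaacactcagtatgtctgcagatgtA

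The longest stretch without a difference is 246 bases, longer than the 150 bases of 1 sequencing read. Of the 632 windows of 150 bases in the pseudogene, 109 (17.2%) are found letter for letter in a Pcna transcript. A read from such a window cannot by itself be told apart between the genes, and other reads are separated by few bases. The reads were paired, and the mate of a read was not considered in this count.

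The counts given to Pcna were higher in KO. Pcna (chr2:132091082-132095234, minus strand, GRCm39) stood at 223, 197 and 185 CPM in the WT libraries and at 263, 269 and 263 CPM in the KO libraries. The groups did not overlap, and the fitted log2 fold change was 0.40 with a 95% interval of 0.26 to 0.53 (adjusted p = 5.58e-07). Its transcript was the most abundant per length among the 45 genes, with a mean of 96.8 FPKM, the deposited level that is scaled by gene length and library size.

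The counts given to the pseudogene moved the other way. Pcna-ps2 (chr19:9260744-9261524) had 1037, 791 and 1160 counts in WT and 15, 12 and 21 in KO. It took 24.7 ± 2.25% of the counts of both genes in WT and 0.344 ± 0.131% in KO (SD, n = 3). The sum of both genes was 304, 253 and 247 CPM in the WT libraries and 264, 269 and 265 CPM in the KO libraries. All 3 KO sums lay within the range of the WT sums, above WT2 and WT3 and below WT1. The sums averaged 268 ± 31.3 CPM for WT and 266 ± 2.85 CPM for KO (SD, n = 3) and did not differ beyond the replicate spread (exact permutation test, two-sided, p = 1). When counts of pseudogenes were added to their parent genes before the fit, the log2 fold change of Pcna was -0.011 (adjusted p = 0.960), so the call for Pcna was lost once the reads of the pseudogene were added. It was also lost with limma on log2(FPKM + 1). Pcna also lies 0.563 Mb from Mcm8 on chromosome 2, and the part of that position in the result was not tested.

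**Figure D3:**
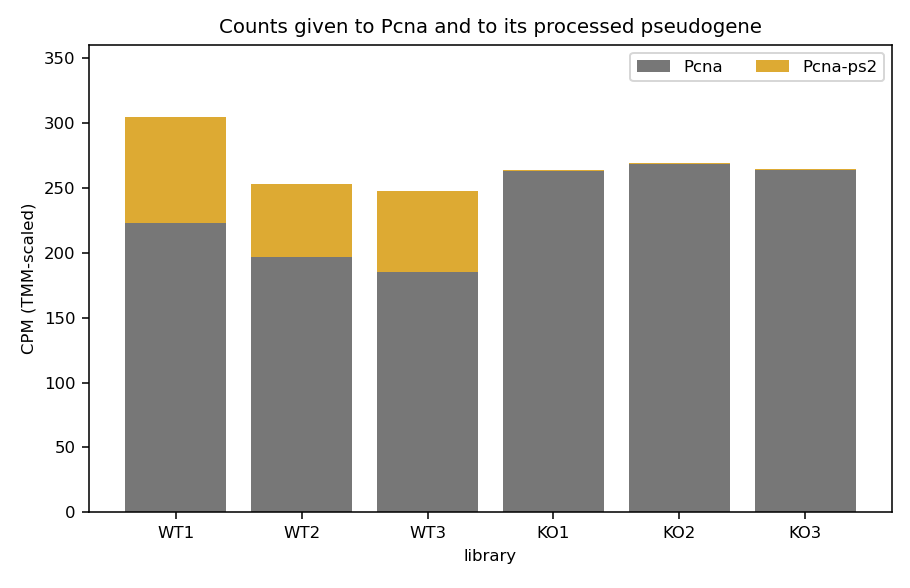
CPM (TMM-scaled) given to Pcna and to its processed pseudogene Pcna-ps2 in each of the 6 libraries, stacked. The total runs from 247 to 304 in WT and from 264 to 269 in KO, while the pseudogene's part is 56.4 to 81.3 in WT and 0.708 to 1.31 in KO.

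No other member had a pseudogene at a comparable level. The annotation lists 19 pseudogenes of 13 members, of which 8 had any count and only Pcna-ps2 reached 1 CPM in a genotype. No other pseudogene had more than 9 counts in any library.

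Pold1 was the other gene called higher. It encodes the catalytic subunit of DNA polymerase delta, the enzyme that extends the lagging strand. Pold1 (chr7:44182170-44198273) stood at 97.5, 97.3 and 112 CPM in WT and at 118, 119 and 126 CPM in KO. The lowest KO library exceeded the highest WT library by little, and the KO mean was 118% of the WT mean (log2 fold change 0.24, SE 0.07, adjusted p = 0.0183). The call was lost by leaving out WT2 or any 1 of the KO libraries, and with DESeq2 and limma.

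Orc6 and Dbf4 were the members called lower. Orc6, the smallest ORC subunit, stood at 72.1, 62.4 and 59.8 CPM in WT and at 53.7, 53.0 and 54.0 CPM in KO (chr8:86026261-86034907). The WT libraries were spread more widely than the KO libraries, which were nearly level, and the KO mean was 82.7% of the WT mean (log2 fold change -0.27, SE 0.08, adjusted p = 0.0153). The call was lost without WT1, the highest of the WT libraries, and without any 1 of the KO libraries, and with DESeq2 and limma.

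Dbf4 encodes the partner that activates the kinase CDC7. Dbf4 (chr5:8446973-8472716) stood at 143, 133 and 130.0 CPM in WT and at 119, 116 and 107 CPM in KO. The groups were apart, with a KO mean at 84.1% of the WT mean (log2 fold change -0.25, SE 0.07, adjusted p = 0.0119). DESeq2 kept this call and limma did not, and it was lost without KO2 or KO3.

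**Figure D4:**
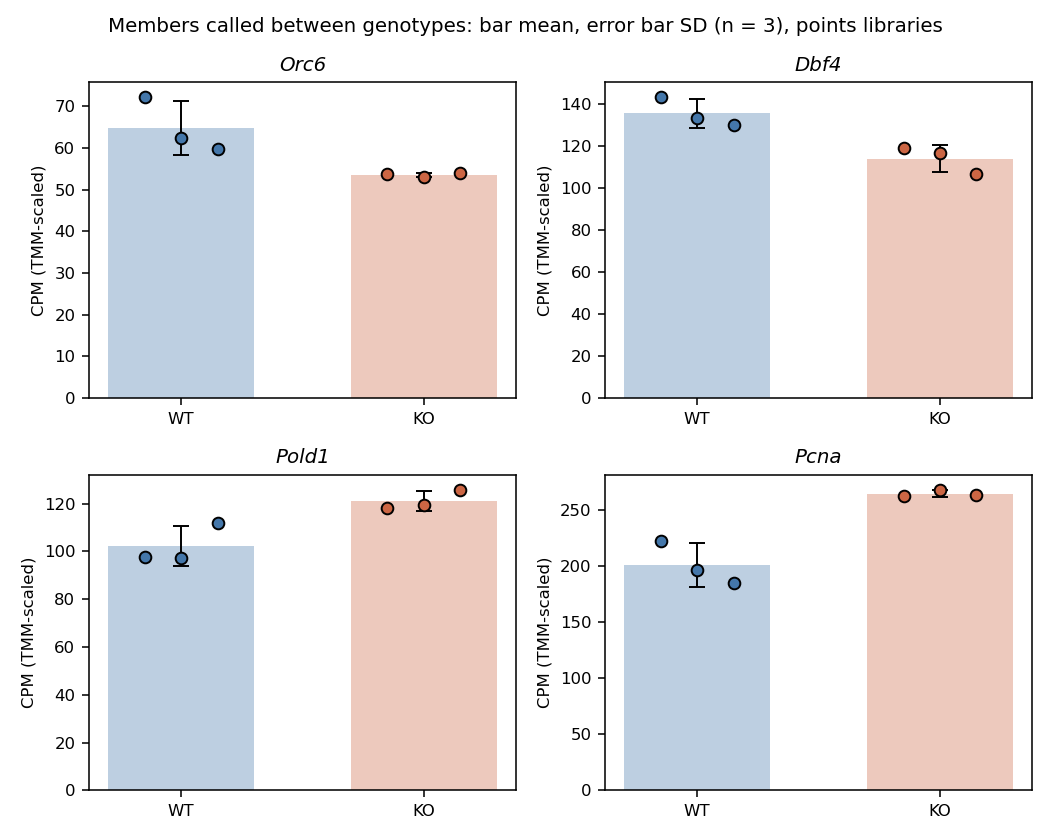
CPM (TMM-scaled) of the 4 called members in each library; bars are means and error bars SD (n = 3 per genotype), and every axis starts at 0. The genotypes do not overlap for any of the 4 genes, and the KO means lie between 82.7% and 132% of the WT means.

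The origin recognition complex binds DNA at origins and starts the loading of the helicase. Per length, Orc6 was its most abundant transcript, with 29.2, 25.2 and 24.0 FPKM in WT and 21.6, 21.4 and 21.8 FPKM in KO. Orc5 was the least abundant, with 3.57, 3.13 and 3.21 FPKM in WT and 3.39, 3.08 and 3.33 FPKM in KO. The mean level of Orc6 was 7.26 times that of Orc5, so the transcript levels of subunits that join in 1 complex differed. The fitted log2 fold changes of all 6 subunits were below 0, with a median of -0.15, but Orc6 alone was called, and the sign changed in 1 of the 15 alternatives for Orc2 and in 2 for Orc5. Orc1, the large ATPase subunit, had a log2 fold change of -0.26 (adjusted p = 0.0913), with 28.9, 33.5 and 31.3 CPM in WT and 25.4, 23.1 and 30.0 CPM in KO.

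The loading factors and their inhibitor did not differ detectably. Cdt1, which brings the helicase to ORC, was the highest, with 32.9, 31.1 and 33.4 FPKM in WT and 30.8, 31.8 and 32.0 FPKM in KO. Cdc6, the ATPase that joins ORC in G1, was the lowest, with 12.2, 11.8 and 12.1 FPKM in WT and 12.4, 12.3 and 12.1 FPKM in KO. Gmnn, which encodes the CDT1 inhibitor geminin, stood at 44.8, 39.5 and 43.8 CPM in WT and at 40.0, 41.7 and 43.6 CPM in KO. The libraries of all 3 genes overlapped between genotypes. The KO mean of Gmnn was 97.9% of the WT mean (adjusted p = 0.883), with a 95% interval of -0.21 to 0.14 on the log2 scale.

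Among the genes of origin firing, Dbf4 was called and the others were not. Cdc45, a partner of the helicase at the fork, was the highest, with 19.3, 16.1 and 17.7 FPKM in WT and 17.6, 16.0 and 18.0 FPKM in KO. Ticrr, which encodes treslin, was the lowest, with 3.21, 4.40 and 4.07 FPKM in WT and 4.73, 4.54 and 4.64 FPKM in KO. The KO libraries of Ticrr lay above those of WT, with a log2 fold change of 0.25 that missed the threshold (adjusted p = 0.0542) and passed it when WT2 was left out. Cdc7, the kinase that Dbf4 activates, had a log2 fold change of -0.13 (adjusted p = 0.478) and its libraries overlapped.

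The GINS complex links the helicase to the leading strand polymerase, and Wdhd1 encodes AND-1, which ties it to polymerase alpha. None of these 5 genes was called. Gins4 was the highest, with 36.7, 30.4 and 35.5 FPKM in WT and 33.4, 36.6 and 32.0 FPKM in KO, and Gins3 the lowest, with 8.27, 5.78 and 6.39 FPKM in WT and 5.87, 7.37 and 6.38 FPKM in KO. Their log2 fold changes lay between -0.06 for Gins3 and 0.14 for Gins1, and all of them overlapped between genotypes. Of the exon bases of Gins2, 67.3% also belong to exons of Gse1 on the other strand (GENCODE M21). Gse1 was called higher in KO (log2 fold change 0.33, adjusted p = 0.00255), and whether reads were counted by strand is not given in the sources used here, so the counts of Gins2 are uncertain.

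Polymerase alpha and primase make the RNA and DNA primers of each strand. Prim1, the catalytic primase subunit, was the highest, with 20.4, 19.6 and 20.0 FPKM in WT and 18.0, 19.8 and 17.4 FPKM in KO. Prim2, the large primase subunit, was the lowest, with 10.6, 8.89 and 9.44 FPKM in WT and 8.42, 8.08 and 8.41 FPKM in KO. The KO libraries of Prim2 lay below those of WT (log2 fold change -0.21, adjusted p = 0.108), as did those of Pola1, the X-linked catalytic subunit (log2 fold change -0.14, adjusted p = 0.295). Neither passed the threshold with all 6 libraries, while Prim2 passed it without WT2 and Pola1 without WT1. Pola2 had a log2 fold change of 0.010.

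In polymerase delta, Pold1 was called higher and its 3 partners were not. Pold2, the subunit that bridges the catalytic subunit to the others, was the highest, with 50.7, 44.8 and 50.8 FPKM in WT and 52.6, 48.5 and 55.5 FPKM in KO. Pold4 was the lowest, with 3.57, 1.90 and 4.15 FPKM in WT and 3.10, 4.94 and 3.36 FPKM in KO. The fitted log2 fold changes of all 4 were above 0, with a median of 0.16, and that of Pold4 changed sign in 2 of the 15 alternatives. Pold4 shares 24.6% of its exon bases with another gene on the same strand.

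Polymerase epsilon copies the leading strand, and none of its 4 genes was called. Pole3, a histone-fold subunit, was the highest, with 33.3, 27.4 and 28.3 FPKM in WT and 28.1, 27.4 and 27.6 FPKM in KO. Pole2, the second subunit, was the lowest, with 9.65, 9.91 and 7.98 FPKM in WT and 8.61, 7.43 and 7.64 FPKM in KO. The log2 fold change of Pole2 was -0.21 (adjusted p = 0.262) and the genotypes overlapped, while Pole, the catalytic subunit, had one of 0.02 (adjusted p = 0.911).

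The clamp loader RFC opens the PCNA ring and closes it on DNA. All 5 of its genes were below Pcna per length, the lowest being Rfc3, with 11.8, 11.8 and 10.4 FPKM in WT and 12.6, 12.5 and 13.9 FPKM in KO. The KO libraries of Rfc3 were above those of WT (log2 fold change 0.20, adjusted p = 0.168). The log2 fold changes of Rfc1, Rfc2, Rfc4 and Rfc5 lay between -0.07 and 0.05, and none was called.

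Replication protein A coats single-stranded DNA at the fork. Its large subunit gene Rpa1 was the highest of the 3, with 43.8, 43.3 and 44.2 FPKM in WT and 41.6, 41.2 and 42.3 FPKM in KO, and Rpa3 the lowest, with 18.0, 16.1 and 15.3 FPKM in WT and 16.9, 18.7 and 14.8 FPKM in KO. The KO libraries of Rpa1 lay below those of WT, yet the difference was small (log2 fold change -0.07, adjusted p = 0.676). Rpa2 and Rpa3 overlapped between genotypes.

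Okazaki fragments are trimmed by the flap nuclease FEN1 and joined by DNA ligase I. Lig1 was high, with 38.9, 35.2 and 38.9 FPKM in WT and 41.9, 38.9 and 45.1 FPKM in KO, and its log2 fold change was 0.16 (adjusted p = 0.194). Fen1 had the lowest level of all 45 genes, with 1.68, 2.88 and 2.08 FPKM in WT and 2.29, 2.70 and 2.28 FPKM in KO. These values rest on 52 to 118 counts a library. Of the exon bases of Fen1, 84.2% are shared with other genes, 78.8% with the antisense RNA gene Gm10143, which itself had 9 to 27 counts a library. The sources used here do not say how reads in shared bases were counted, so the level of Fen1 is uncertain and its rank is not a comparison of transcripts.

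Nucleotides for S phase come from ribonucleotide reductase and thymidylate synthase. Rrm2, the small reductase subunit, was the highest, with 76.1, 73.7 and 69.2 FPKM in WT and 73.5, 73.5 and 71.1 FPKM in KO, and Tyms the lowest, with 12.5, 12.1 and 11.9 FPKM in WT and 12.8, 12.3 and 11.9 FPKM in KO. Neither differed detectably, with log2 fold changes of -0.0039 and 0.02. Rrm1, the large reductase subunit, stood at 424, 424 and 398 CPM in WT and at 367, 366 and 369 CPM in KO. Its groups were apart, with a log2 fold change of -0.18 that missed the threshold (adjusted p = 0.0797).

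**Figure D5:**
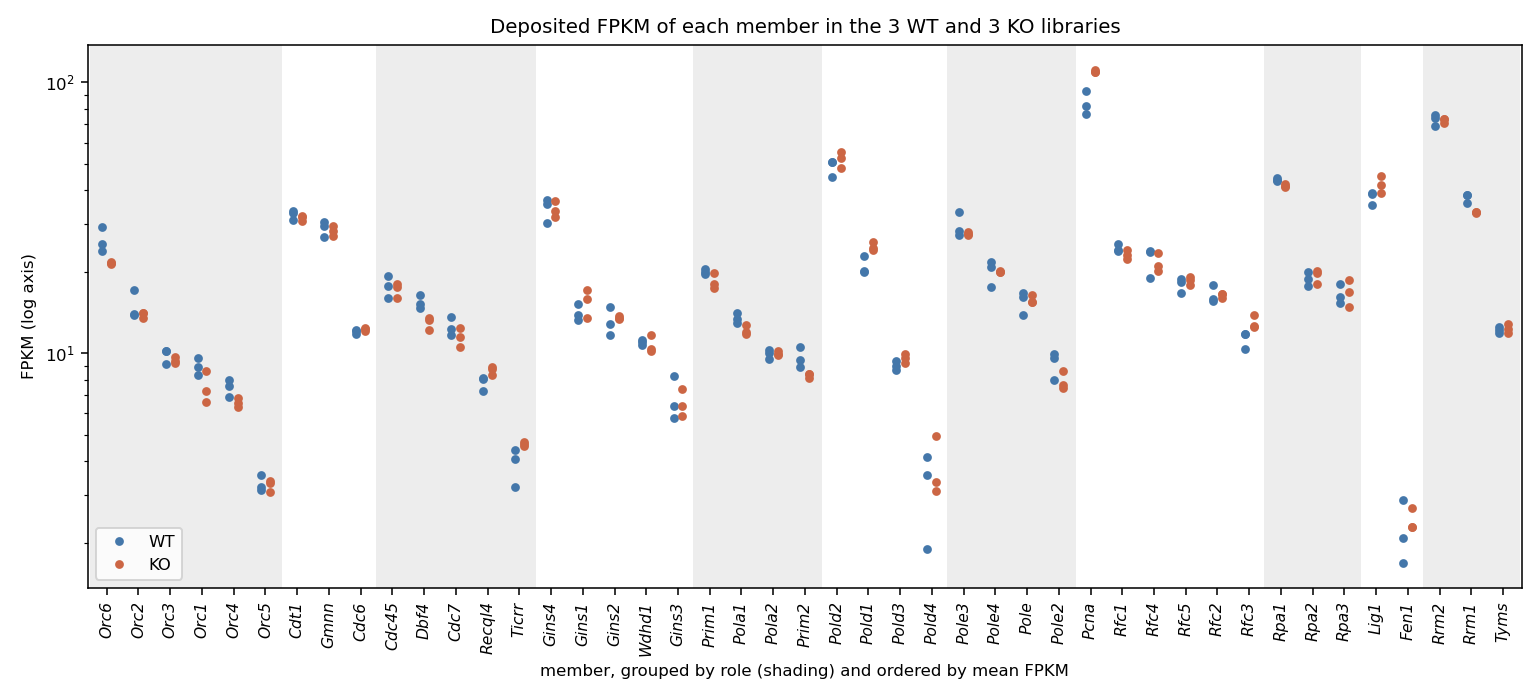
Deposited FPKM (log axis) of the 45 replication genes in the 3 WT and 3 KO libraries, with shading for role groups and genes ordered by mean level in each. Mean levels run from 2.32 FPKM for Fen1 to 96.8 FPKM for Pcna, and the CPM of the genotypes overlap for 33 of the genes.

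Per length, the 45 genes had a median of 14.8 FPKM, and 32 of them had a mean above 10 FPKM. The spread between replicates was small. The coefficient of variation of the CPM had a median over the members of 6.92% in WT and 3.82% in KO, and Pold4 varied most in both. The library WT1 held the highest value of the 6 for 17 members and WT2 the lowest for 14. Shared exon bases with another gene were found for 19 members, over 20% of the gene for 4 (Fen1, Gins2, Orc2 and Pold4).

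Promoters were examined because many replication genes are known E2F targets. RefSeq promoters (GRCm38.p6, 250 bases before to 50 after the start) were matched for 37 of the 45 members, with the first entry of a gene taken where the table had several. The letters TTTCCCGC, TTTCGCGC, TTTGCCGC or TTTGGCGC, on either strand, were found in 11 of these 37 (29.7%), against 626 of all 27025 promoters in the table (2.32%). CCAAT was found in 18 members (48.6%, against 37.9% of all promoters) and TTTGAA in 5 (13.5%, against 18.1%). These shares were not adjusted for base composition, and its part in them was not tested. The matches of the first set did not overlap each other. The windows of Orc1, of Rfc3, which holds a pair of matches, and of the called gene Pold1 are printed 5′ to 3′ on the strand of the gene, with the matched letters in capitals.

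Orc1 (chr4:108579416-108579445, plus strand): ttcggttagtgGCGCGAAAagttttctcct
Rfc3 (chr5:151651195-151651224, minus strand): gcacgcTTTCGCGCtcGCGGGAAAactcta
Pold1 (chr7:44548766-44548787, minus strand): cgtatcttgtgGCGGGAAAagc

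The changes are given by these letters as a description, and their difference was not tested. Of the 11 genes with the letters 1 was called (Pold1) and the median log2 fold change was -0.04, beside 3 called of 26 (Pcna, Orc6 and Dbf4) and -0.02 for the members whose promoter lacked them. None of the 8 members without a promoter in the table was called. A match is a description of the letters and not of a bound factor.

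Other genes of the replication program and of the cell cycle were counted in the same way, beside the 9.00% called of all genes tested and the 17.0% of those of at least 1 CPM. Of 40 other replication factors, 2 were higher in KO and none lower (5.00% called), with a median log2 fold change of -0.014. The called genes were Dut, which keeps uracil out of DNA, at 81.6, 61.6 and 68.7 CPM in WT and 92.9, 92.0 and 89.5 CPM in KO, and Chtf18, a subunit of an alternative clamp loader, at 46.1, 46.0 and 49.4 CPM in WT and 58.3, 59.2 and 67.6 CPM in KO. Both were separated between genotypes, with log2 fold changes of 0.38 each, and DESeq2 called the same genes, while limma called Chtf18 on log2(FPKM + 0.1) and none on log2(FPKM + 1).

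Of 18 genes of the E2F and RB families and of the MuvB, MYB and forkhead partners that act with them (Lin9, Lin37, Lin54, Mybl2 and Foxm1) none was called by edgeR, DESeq2 or limma, and 3 had an unadjusted p below 0.05 in edgeR. Their median log2 fold change was -0.04, and Rbl2, a relative of RB, had the smallest adjusted p (0.114, log2 fold change -0.25). Of 22 genes that peak in G2 and M, Plk1, a mitotic kinase, was higher and Kif11, a spindle motor, was lower in KO (9.09% called), with a median of -0.02 for the list. Plk1 stood at 113, 109 and 118 CPM in WT and at 138, 137 and 146 CPM in KO (log2 fold change 0.30), and Kif11 at 186, 193 and 188 CPM in WT and at 157, 167 and 156 CPM in KO (log2 fold change -0.24). DESeq2 and limma called the same pair.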

How the data were processed

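Bulk RNA sequencing of 3 WT and 3 KO MEF libraries was analysed. Per the labels and the methods of the study, the authors cleaned paired reads of 150 bases, used Hisat2 for alignment and featureCounts for counts per gene (Ensembl 106 annotation, GRCm39). The submitters' processing notes also name GRCm38 as a build, so coordinates of genes are those of the deposited tables and coordinates of promoters those of RefSeq, and the builds were not mixed. The strand setting and the handling of reads in shared bases are not given in the sources used here. The authors deposited raw counts and FPKM values. The deposited FPKM were proportional to counts over gene length within a library.

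The 26898 genes that any library listed above 0 FPKM entered the test on the deposited counts, made with edgeR 4.0.16 (TMM, quasi-likelihood, genotype as the only term) and Benjamini-Hochberg adjustment over all of them, and the script was tested on simulated data. The prior degrees of freedom were estimated as infinite, so every gene took the common trend of the dispersion (common biological coefficient of variation 0.0780), and the p-values are too small for genes that vary more than the trend. CPM are TMM-scaled. Levels of different genes were compared only in FPKM. Intervals are 95% intervals of the fit. Sums were compared with exact permutation tests. DESeq2 1.42.0, limma 3.58.1 on log2(FPKM + 1) and log2(FPKM + 0.1), other filters and scalings, summed pseudogene counts, thinning to the smallest total, a replicate block and leaving out each library were alternatives. Shared exon bases and the Pcna alignment came from GENCODE M21 and were added after values had been seen.

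The members and lists were chosen with earlier results of these data known. Values in every library are given for Mcm8, Pcna, Gmnn, the called members, and the members with the highest and the lowest mean FPKM of each role group. From each other list at most 4 genes were to be named, by smallest adjusted p, and pseudogenes of at least 1 CPM in a genotype. Other members (Orc1, Ticrr, Rrm1 and those with separated groups) were named after their values were seen. Endothelial, blood and skeletal muscle markers gave 0 calls in edgeR, with 0 at an unadjusted p below 0.05 in each of these lists, and 0 with DESeq2 and limma. Other data of the study were not analysed here.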

Additional observations from a re-analysis of the deposited data

How the results depend on the processing

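The counts of members called changed with the tool and the libraries. Against 2 higher and 2 lower (2420 of all genes), DESeq2 called 1 and 1 (1524 of all genes), limma on log2(FPKM + 1) 0 and 0 (912 of all genes, with 9 members at an unadjusted p below 0.05), and limma on log2(FPKM + 0.1) 1 and 0 (916 of all genes). With pseudogene counts summed, 1 member was higher and the log2 fold change of Pcna became -0.011, by construction. Leaving out 1 library gave 1 to 4 higher, 0 to 4 lower and 1636 to 3274 of all genes. Without WT1 there were 4 and 4 (Orc1, Pola1, Rfc3, Lig1 and Rrm1 gained a call, Orc6 lost it). Without KO2 no member was lower, and without KO1 or KO3 there were 1 and 1. These fits hold fewer samples. The cause of the losses under DESeq2 and limma was not tested. RLE factors, filterByExpr, no filter and thinning gave 2 and 2, which is 8.89% of the members in each. Of all genes in these fits 9.03% were called with RLE factors, 14.3% with filterByExpr, 3.61% with no filter and 8.60% with thinning. The fit with no filter counts all 55565 genes listed, also those without reads. No member met the rule for a differentially expressed gene in any of the 15 alternatives, and the median log2 fold change of the members stayed between -0.03 and 0.02. Of the 41 uncalled members 19 changed sign in at least 1 alternative and 7 were called in at least 1 (Ticrr and Prim2 without WT2, Orc1 also without KO3, Rrm1 also without WT3, and the others without WT1). The order by level within role groups was also taken from TMM counts per kilobase, but these are the FPKM rescaled per library, so the comparison says nothing about stability.

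With the replicate number as a block, 2 members were higher and 2 lower, and 2365 of all genes were called. The deviations of samples with the same number correlated at -0.011, -0.0083 and 0.045, and not every sample correlated best with its own number. Samples of unlike numbers correlated at -0.032 to 0.033. With 3 libraries per genotype these values cannot show whether samples of the same number were paired.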
